A study of Bos indicus with 55 samples.

Results

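Endometrium, the lining of the uterus, was compared between cows that carried a nuclear transfer conceptus and cows that carried an IVF conceptus. A conceptus is the embryo with its developing membranes. IVF joins egg and sperm in culture, and nuclear transfer replaces the nucleus of an egg with that of another cell. Libraries were chosen by their sample titles: 11 libraries named a nuclear transfer conceptus (5 female, 6 male) and 10 named an IVF conceptus (7 female, 3 male), out of 27 endometrium libraries and 55 samples in the series. The other 6 endometrium libraries came from cows with a conceptus conceived in vivo by artificial insemination (3 female, 3 male) and are given beside the results for reference. All cows were pregnant at day 16 and the labels give no other treatment. All tissue was intercaruncular endometrium sequenced as poly(A) RNA, and every library carried a different animal number. The endometrium was from Bos taurus indicus and the conceptuses from Bos taurus taurus, per the series' design text. The sources used here name neither the donor cells of nuclear transfer nor the sires.

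The intercaruncular endometrium lies between the sites where the cotyledons of the placenta will later attach, and it holds the uterine glands whose secretions feed the free-living conceptus. In this window the ruminant trophoblast elongates and secretes interferon tau, which keeps the corpus luteum working and switches on interferon-stimulated genes in the endometrium. Embryos made by IVF or nuclear transfer are known for higher losses than embryos conceived in vivo, and the series title speaks of a biosensor capability of the endometrium. The files identify genes by Ensembl identifier and do not pair these with names, so interferon-stimulated genes and the other gene groups and markers could not be looked up, and the tissue label could not be checked against markers of its cell types. In tissue such as this, fewer cells of a type and less RNA per cell cannot be told apart.

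Totals ran from 5891109 to 7049421 counts in the 11 nuclear transfer libraries and from 5525891 to 7367028 in the 10 IVF libraries. The median nuclear transfer library had a count for 18810 genes and the median IVF library for 18840. The 5 most abundant genes took 5.26 to 10.2% of the counts of a nuclear transfer library and 6.83 to 9.28% of an IVF library. Nuclear transfer female replicate 3 and nuclear transfer male replicate 6 came from the uterine horn opposite the conceptus (contralateral), while all 10 IVF libraries came from the horn that held it. One in vivo library, male replicate 2, was contralateral too. Contralateral tissue is thus present in 1 arm of the comparison. The edgeR counts of calls below were repeated without these 3 libraries, while those of DESeq2 and limma voom were not.

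No endometrial gene differed between nuclear transfer and IVF conceptuses by the quasi-likelihood test of edgeR. Of 15911 genes tested, 0 passed an adjusted p of 0.05 (0% called), with the female and the male differences weighted equally. At an unadjusted p under 0.05 lay 348 genes, 2.19% of those tested, of which 201 were higher and 147 lower under nuclear transfer. A threshold of this size passes 5% of genes that do not differ, which is 796 of these. limma voom with quality weights called 0 genes as well, with 457 at an unadjusted p under 0.05 (2.87%). DESeq2 called 2 genes (0.0126%), 1 higher and 1 lower, both described below, and gave 386 an unadjusted p under 0.05 (2.43%). No gene of the 15911 had all 11 nuclear transfer libraries above all 10 IVF libraries, and none had them all below (0% each way). Without the 3 contralateral libraries edgeR again called 0 genes, with 347 at an unadjusted p under 0.05.

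The intervals of the differences show what sizes the data leave room for. The median size of the log2 difference was 0.0857, against a median standard error of 0.143. For 14081 genes (88.5%) the 95% interval lay wholly within a 2-fold difference either way, and for 11037 genes (69.4%) within 1.5-fold. For 0 genes did the interval lie wholly beyond a 2-fold difference. Precision was lowest for genes of low level. Among 7601 genes with a mean log2 CPM (CPM: a gene's share of the library's counts on a fixed scale, with libraries matched by the TMM factors of edgeR) of 4 to 7, the interval lay within 2-fold for 98.1%. Among 5256 genes at a log2 CPM of 1 to 4 this held for 86.1%, and among 1453 genes under 1 for 37.8%. Among the 1601 genes over 7 the share was 96.8%, slightly below that of the class from 4 to 7. In the class under 1 a 2-fold difference between the types was therefore mostly not excluded at this depth and number of cows. Of the genes over a log2 CPM of 7, 11 (0.687%) had an unadjusted p under 0.05, the lowest share of the 4 classes.

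**Figure D1:**
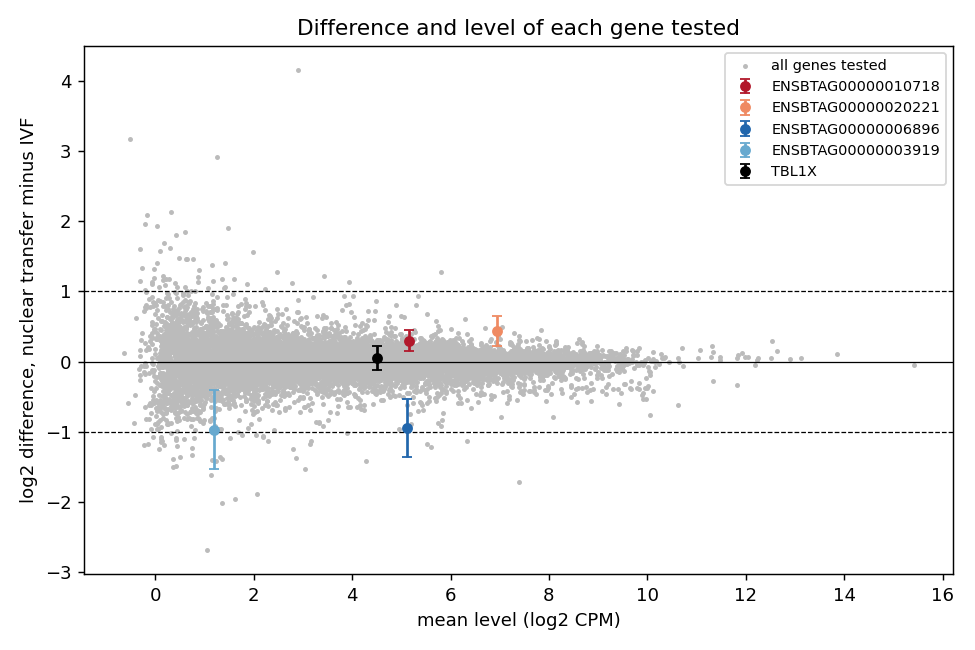
Log2 difference between nuclear transfer and IVF (vertical axis) against the mean log2 CPM of the gene (horizontal axis) for the 15911 genes tested in grey, with the 95% interval drawn for 5 genes and dashed lines at a 2-fold difference. The cloud is widest at low levels, and 104 genes lie outside the dashed lines.

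A fitted difference over 2-fold was reached by 104 genes (0.654%), 57 higher and 47 lower under nuclear transfer, and 39 of these had an unadjusted p under 0.05. Their levels were low, with a median of 1.30 CPM over the 21 libraries against 21.7 CPM over all genes tested. At least 1 of the 21 libraries had no count for 74 of the 104 (71.2%), against 4.14% of all genes. The library with the highest level held a median of 20.8% of a gene's summed CPM among the 104 and 6.79% over all genes. That library was nuclear transfer female replicate 3, which is contralateral, for 13 of the 104, more often than any other. IVF female replicate 2 and IVF male replicate 1 followed with 11 each. The other contralateral library of the comparison, nuclear transfer male replicate 6, was the highest for 6. How often each library was the highest over all genes was not counted, so these numbers have no share to be set against.

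The 2 genes with the smallest p in each direction are described in full, and since they were chosen by that p their differences are extremes of 15911. ENSBTAG00000006896, the gene with the smallest p of all, was lower under nuclear transfer. Nuclear transfer libraries ran from 11 to 49.4 CPM with a median of 23.8, and IVF libraries from 28.4 to 88.4 with a median of 45.5. The ranges overlapped: 8 of 11 nuclear transfer libraries lay below the lowest IVF library, while nuclear transfer female replicate 4, at 49.4 CPM, lay above the IVF median. The means were 24.6 ± 10 CPM (SD, n = 11) and 48.5 ± 15.6 (SD, n = 10). The log2 difference was -0.94 (SE 0.20, 95% interval -1.36 to -0.53), with an unadjusted p = 9.21e-05 and an adjusted p = 1.00 by edgeR. By DESeq2 the same difference had an adjusted p = 0.0448, a value shared with the other gene that DESeq2 called, and by limma voom 0.474. All 3 IVF males, at 44.4, 46.6 and 42.8 CPM, lay above all 6 nuclear transfer males, whose highest value was 29.4. ENSBTAG00000006896 is 1 of 73 genes (0.459% of those tested) whose nuclear transfer males all lay lower. The in vivo libraries averaged 27.8 ± 9.21 CPM (SD, n = 6), nearer to the nuclear transfer mean than to the IVF mean, with no test made.

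ENSBTAG00000003919, a gene of low level, was the second in this direction. Nuclear transfer libraries ran from 0.666 to 3.59 CPM with a median of 1.18, and IVF libraries from 1.66 to 3.30 with a median of 2.64. Of the nuclear transfer libraries 9 of 11 lay below the lowest IVF library, but nuclear transfer male replicate 1, at 3.59 CPM, lay above all IVF libraries. The 5 nuclear transfer females, at 1.51, 1.23, 0.892, 1.18 and 0.961 CPM, all lay below the 7 IVF females. These levels rest on 6 to 10 counts, against 11 to 21 counts in the IVF females. This gene is 1 of 15 (0.0943% of those tested) whose nuclear transfer females all lay lower. The log2 difference was -0.97 (SE 0.27, 95% interval -1.54 to -0.41, adjusted p = 1.00 by edgeR). In vivo libraries averaged 2.00 ± 1.05 CPM (SD, n = 6), between the 2 types.

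ENSBTAG00000010718 had the smallest p among genes higher under nuclear transfer. Its levels were 31.3 to 45.0 CPM with a median of 38.4 under nuclear transfer and 24.8 to 38.7 with a median of 31.5 under IVF. The 5 nuclear transfer females lay close together, at 39.8, 40.1, 37.9, 38.4 and 40.9 CPM, and IVF female replicate 3, at 38.7, reached into their range. The log2 difference was 0.30 (SE 0.07, 95% interval 0.15 to 0.45, adjusted p = 1.00 by edgeR), so the interval ends below 1.5-fold. The gene averaged 36.5 ± 5.38 CPM (SD, n = 6) in vivo.

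ENSBTAG00000020221 was the second among genes higher under nuclear transfer. It ran from 115 to 189 CPM with a median of 129 under nuclear transfer and from 80.8 to 137 with a median of 104 under IVF. Each of the 11 nuclear transfer libraries lay above the IVF median and 8 of 10 IVF libraries lay below the lowest nuclear transfer library. The log2 difference was 0.44 (SE 0.11, 95% interval 0.22 to 0.65, adjusted p = 1.00 by edgeR). In vivo libraries averaged 131 ± 38.3 CPM (SD, n = 6), with in vivo male replicate 3 at 209.

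TBL1X, whose protein takes part in a corepressor complex of nuclear receptors, was the only gene tested that the file gives by symbol. It ran from 17.4 to 31.4 CPM with a median of 22.6 under nuclear transfer and from 20.2 to 25.3 with a median of 21.9 under IVF, so the IVF range lay inside the nuclear transfer range. The means were 22.6 ± 3.59 CPM (SD, n = 11) and 22.3 ± 1.76 (SD, n = 10). The log2 difference was 0.05 (SE 0.08, 95% interval -0.12 to 0.22, adjusted p = 1.00 by edgeR), and without nuclear transfer male replicate 1, the library at 31.4 CPM, it was -0.0095.

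**Figure D2:**
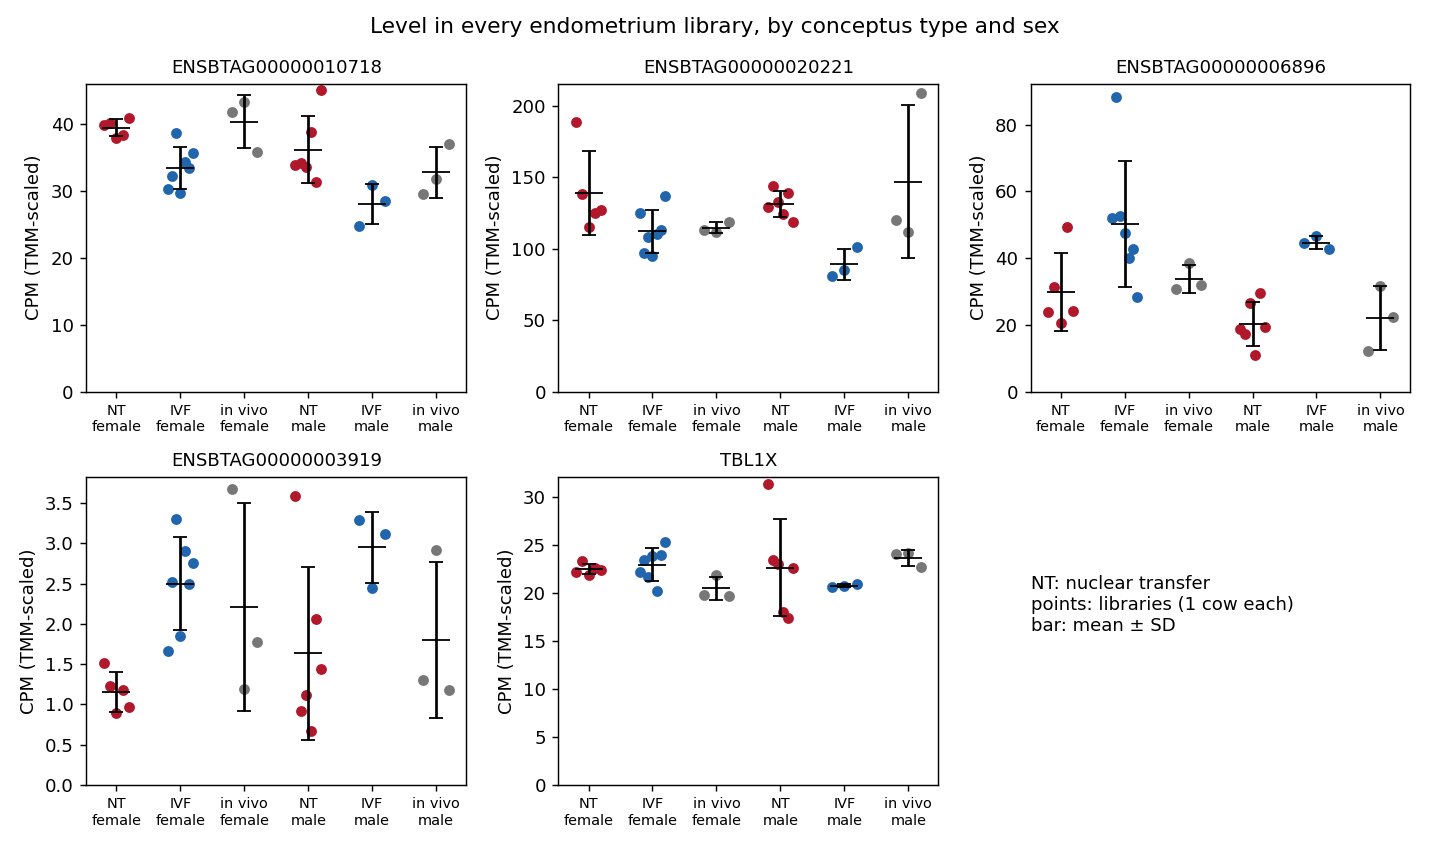
TMM-scaled CPM (vertical axes, from 0) of the 4 genes with the smallest p and of TBL1X in every endometrium library, by conceptus type and sex (horizontal axes), with points for libraries and bars for mean ± SD. In each panel at least 1 nuclear transfer library lies inside the range of the IVF libraries.

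The 2 calls of DESeq2 were of different kinds. The lower one was ENSBTAG00000006896. Both had the same adjusted p of 0.0448, but the higher one had the smaller unadjusted p by DESeq2 (3.1e-06 against 5.63e-06). The adjusted p of ENSBTAG00000006896 thus depends on the other gene ranking ahead of it, so the 2 calls are not separate. The higher one, known by its identifier alone, was close to an all-or-none gene between cows: it exceeded 1 CPM in 3 of 11 nuclear transfer, 4 of 10 IVF and 2 of 6 in vivo libraries. The nuclear transfer libraries over 1 CPM were female replicates 1 and 2, at 18.8 and 19.7 CPM, and male replicate 1, at 43.6. The IVF libraries over 1 CPM were 4 females, at 16.2, 13.4, 19.1 and 18.0 CPM, and the 3 IVF males had 0 counts. DESeq2 called this gene in the overall comparison (adjusted p = 0.0448), and it was the 1 gene (0.00628%) that DESeq2 called among males. Its fitted fold there rests on 1 nuclear transfer male and depends on how each tool treats groups of zeros, so it gives no size. edgeR gave it an unadjusted p of 0.0966 overall and 0.0563 among males.

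Conceptus sex was examined because the types differ in their numbers of females and males. Among female conceptuses (5 nuclear transfer, 7 IVF) edgeR called 0 of 15911 genes, with 711 at an unadjusted p under 0.05 (4.47%). DESeq2 called 0, with 775 at that level (4.87%), and limma voom 0, with 1266 (7.96%). Without the 3 contralateral libraries edgeR called 0 of 16103 genes among females. The smallest adjusted p of edgeR was then 0.0845, against 0.972 with all libraries. Among male conceptuses (6 nuclear transfer, 3 IVF) edgeR called 0, with 212 at an unadjusted p under 0.05 (1.33%). limma voom called 0, with 332 at that level (2.09%), and DESeq2 gave 227 (1.43%). Nuclear transfer and IVF libraries did not overlap for 16 genes higher (0.101%) and 15 lower (0.0943%) among females, and for 71 higher (0.446%) and 73 lower (0.459%) among males, where the groups are smaller. No gene was apart in the same direction in both sexes. With shares this small in each sex such a gene would be rare in any case, so this count decides nothing.

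The female and the male differences share no library, so 1 can be set beside the other. Across the 15911 genes, which are not independent replicates, Pearson's r between them was -0.121 and Spearman's rho 0.0124. Of the 711 genes at an unadjusted p under 0.05 in females, 368 (51.8%) had the same sign in males, against 50.7% of all genes. Of the 212 genes in males, 97 (45.8%) had the same sign in females. The genes in both sets numbered 11, with 6 of the same sign. The leading genes of one sex thus had no common direction in the other beyond that of genes at large.

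**Figure D3:**
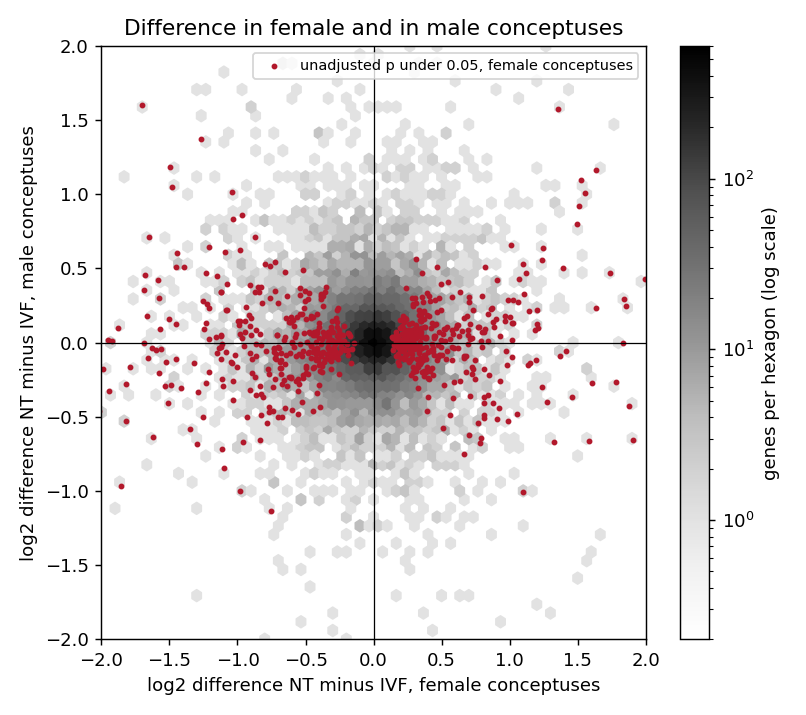
Log2 difference between nuclear transfer and IVF among female conceptuses (horizontal axis) and among male conceptuses (vertical axis), with grey hexagons shaded by number of genes and red points for the 711 genes at an unadjusted p under 0.05 in females; 94 genes lie outside the plotted range. The red points fall on both sides of the horizontal line, and 368 of the 711 genes have the same sign in both sexes.

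Whether the difference between types depended on conceptus sex was tested directly. By edgeR 0 genes passed, with 390 at an unadjusted p under 0.05 (2.45%), and limma voom called 0, with 904 at that level (5.68%). DESeq2 called 2 (0.0126%) and gave 403 an unadjusted p under 0.05 (2.53%). One of the DESeq2 calls was the all-or-none gene. The other, also known by its identifier alone, had the smallest p of edgeR for this test (unadjusted p = 0.000154, adjusted p = 1.00; adjusted p = 0.00146 by DESeq2). Among males it stood at 0, 0.350 and 0.423 CPM under IVF and at 0.799 to 17.1 under nuclear transfer, so these groups did not overlap. It is 1 of 71 genes (0.446% of those tested) whose nuclear transfer males all lay higher. The IVF male values were no higher than 3 counts make in those libraries (0.422, 0.543 and 0.425 CPM), so the separation lies near the floor. Among females it stood at 0.162 to 9.75 CPM under IVF and 0.160 to 0.892 under nuclear transfer, with 2 IVF libraries in the nuclear transfer range. The high values in each case came from part of a group: 3 of 6 nuclear transfer males exceeded 9 CPM, and 4 of 7 IVF females exceeded 4 CPM.

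Libraries of the 2 types were mixed on the leading axes of variation. The first principal component of log2 CPM over 27 libraries held 16.7% of the variance, with nuclear transfer from -42.2 to 49.9 and IVF from -40.4 to 32.0. The second held 12.6%, with nuclear transfer from -18.0 to 19.9 and IVF from -7.80 to 22.3, while in vivo male replicate 1 lay alone at -90.9. Distance between libraries, the root mean square difference in log2 CPM per gene tested, was taken within 1 conceptus sex. It averaged 0.653 between a nuclear transfer and an IVF library (53 pairs), 0.653 between IVF libraries (24 pairs) and 0.679 between nuclear transfer libraries (25 pairs). The order of these averages was not the same in both sexes. Among females the average was 0.657 between the types, 0.655 between IVF libraries and 0.640 between nuclear transfer libraries. Among males it was 0.644 between the types, 0.642 between IVF libraries and 0.706 between nuclear transfer libraries, which include the contralateral male replicate 6. These pairs share libraries, and the averages were not tested.

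Nuclear transfer libraries were not shown to be more variable. The mean distance of a library to the others of its type and sex was 0.676 ± 0.0504 (SD, n = 11) under nuclear transfer and 0.651 ± 0.0289 (SD, n = 10) under IVF (difference 0.0247, two-sided permutation test with 100000 resamples, p = 0.193). The 2 contralateral libraries had the highest distance of their groups, 0.676 in nuclear transfer females and 0.801 in nuclear transfer males. Without the contralateral libraries the difference was -0.0115 (permutation p = 0.394). It was -0.00197 without nuclear transfer male replicate 6 alone and 0.0189 without nuclear transfer female replicate 3 alone, so its direction rested on that male library. Without IVF female replicate 3 the difference was 0.0383 (permutation p = 0.0463). These permutation p-values are approximate. Each distance enters the values of 2 libraries, so the values are not independent, and types were shuffled without regard to conceptus sex. The biological coefficient of variation, which expresses how far a gene's level varies between cows beyond counting error, was 25.2% under nuclear transfer, 23.8% under IVF and 22.4% under nuclear transfer without contralateral libraries. The residual SD of log2 CPM was larger under nuclear transfer for 55.3% of genes, and for 47.3% without the contralateral libraries.

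**Figure D4:**
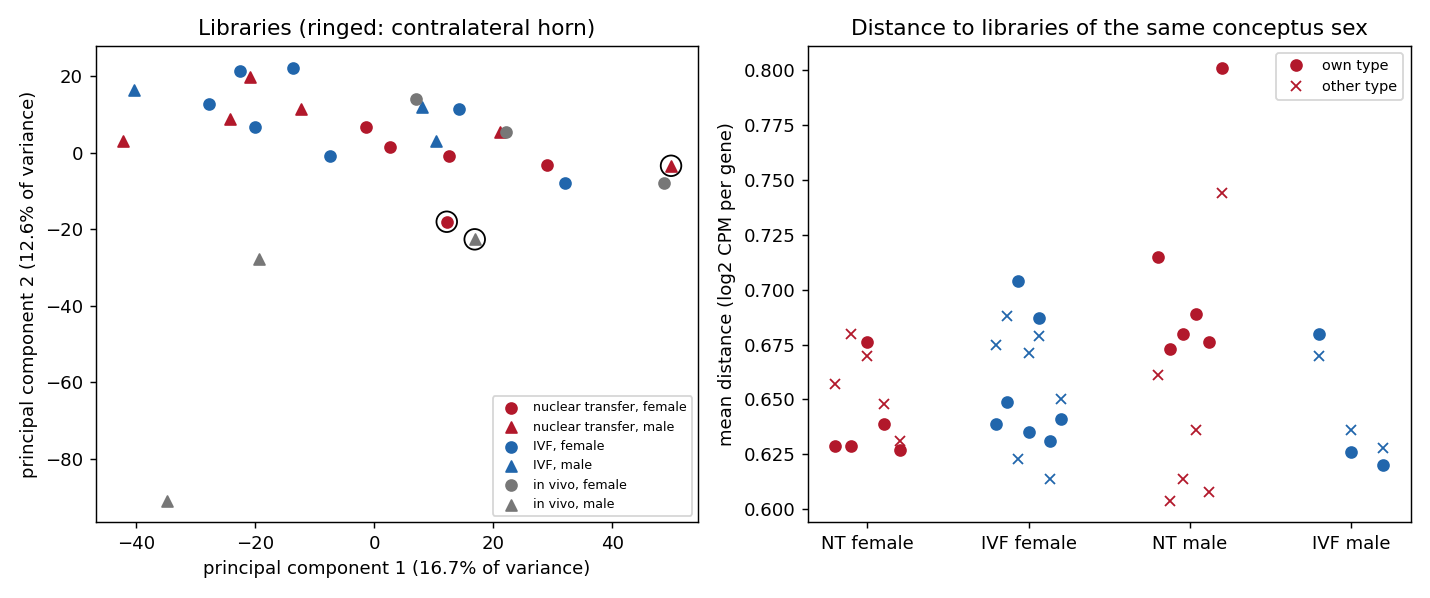
Left, the first 2 principal components of log2 CPM for 27 endometrium libraries, by type (colour) and sex (symbol), with contralateral libraries ringed. Right, the mean distance of each nuclear transfer and IVF library to libraries of its own type (dots) and of the other type (crosses) of the same conceptus sex, in log2 CPM per gene. The types overlap in both panels. Among the nuclear transfer and IVF libraries, nuclear transfer male replicate 6, at 0.801, is the farthest from its group.

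The in vivo libraries entered neither side of this comparison, and their levels were set beside the 348 genes at an unadjusted p under 0.05. The in vivo mean lay closer to nuclear transfer for 207 genes (59.5%) and closer to IVF for 141. Over all 15911 genes it lay closer to nuclear transfer for 56.1%, so the share among the 348 was near that of genes at large. Without in vivo male replicate 1 the shares were 61.2% and 58.5%.

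Poly(A) RNA of a male conceptus left in the uterus would carry transcripts of Y-linked genes, which the cow lacks. The symbols SRY, DDX3Y, USP9Y and EIF1AY had 0 counts in all 27 libraries, and ZFY had 2 counts, both in 1 nuclear transfer male library. In a nuclear transfer or IVF library a count of 0 allows up to 0.407 to 0.543 CPM, which is 3 counts of the total and covers counting error only. No library of male tissue was at hand to show whether these genes could have received counts.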

How the data were processed

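Per the labels' protocols, endometrial RNA was extracted with the miRNeasy Mini kit and DNase treatment and endometrium libraries marked the strand with dUTP. Per the submitters' processing notes, reads were handled on ARS-UCD1.2 with tools that included cutadapt, STAR and featureCounts, and the sources used here give no versions, annotation or strand setting. The authors deposited estimated counts per gene, not normalized: 85.2% of values above 0 were whole within 0.004. Values were then rounded. Of 27619 genes in the table, 12 are given by symbol; the reference gene table matched 0 of the 27607 Ensembl identifiers, so none of the 29 gene and marker lists had a tested member.

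The main test was that of edgeR 4.0.16 under R 4.3.3 (TMM, filterByExpr with minimum count 10 and minimum total 15, quasi-likelihood F test, two-sided, Benjamini-Hochberg adjustment over all genes, threshold 0.05). All 27 libraries entered 1 fit of 6 groups, type by conceptus sex, and the contrast averages the differences found in each sex. Standard errors came from the fold and its F statistic, and intervals are 95%. CPM are TMM-scaled, and log2 CPM used a prior count of 2. DESeq2 1.42.0 and limma 3.58.1 were alternatives. Scripts were tested on simulated data. The rule named the 2 identifiers with the smallest p in each direction and TBL1X. Genes called by DESeq2 alone and the in vivo comparison were added after their values were seen. Members and lists were chosen with earlier results of these data known. The vesicle miRNA table was not used here.

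The replicate numbers name libraries of different cows, and the labels tie them to no shared animal or day.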

Additional observations from a re-analysis of the deposited data

Results flagged for a closer look

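In 27 checks of a measure within 1 group (5 genes, library totals, genes with a count, share of the top 5 genes and distance), 3 libraries stood far from the others of their group, where chance gives about 1 in 20. The groups checked were nuclear transfer females, nuclear transfer males and IVF females, while the 3 IVF males were too few to check. Nuclear transfer female replicate 3 had a mean distance of 0.676 to the other 4 females of its type, and nuclear transfer male replicate 6 a mean distance of 0.801 to the other 5 males. Both are the contralateral libraries of this comparison. IVF female replicate 2 had 88.4 CPM of ENSBTAG00000006896, against 52.5 in the next IVF female.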

How the results depend on the processing

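Alternatives were 2 other tools, other scaling, filters and library sizes, subsets of libraries, covariates, and leaving out each library in turn; a robust prior and a fit without the contralateral libraries and in vivo male replicate 1 were chosen after seeing the data. The overall count of 0 calls held in every alternative but DESeq2, which gave 2, and in all 27 fits with 1 library left out (0 to 0). Among females it was 0 throughout (0 to 0 with 1 library left out). Among males and for the dependence on sex it was 0 to 0 with 1 library left out, and DESeq2 gave 1 and 2. With the replicate block edgeR called 0 genes in each of these 4 tests; the numbers do not pair the cows (median correlation of deviations -0.0212 in 52 same-numbered pairs). Genes at an unadjusted p under 0.05 numbered 634 of 23220 without the filter on low counts and 314 to 457 under the other alternatives. With 1 library left out they numbered 258 to 532, the highest without IVF male replicate 2. Genes with an interval within 2-fold numbered 14756 of the 23220 without that filter, against 14081 of 15911 in the main fit. They numbered 13338 to 14258 under the other alternatives and 13576 to 14184 with 1 library left out. The number of genes tested differed between fits. The 4 identifiers kept their direction in every alternative and every fit with 1 library left out. Since they were chosen by their p in these same libraries, this is no separate evidence for them. TBL1X turned to -0.00947 without nuclear transfer male replicate 1 (range -0.00947 to 0.0817). The difference in spread was -0.0115 without the contralateral libraries and -0.00197 to 0.0405 with 1 library left out, lowest without nuclear transfer male replicate 6; the cause was not tested. The digit of the sample code, whose meaning is not given, was 3 or 4 in 6 of 10 IVF and 1 of 11 nuclear transfer libraries; with it as a covariate edgeR called 0 genes and ENSBTAG00000006896 differed by -0.73. Depth and the number of cows limit genes under 1 log2 CPM most.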
